A study of Mus musculus with 12 samples.

Results

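Introns of 50 to 150 nt form a narrow class at the lower limit of what the mouse spliceosome removes, and 14243 of them were measured here. They were taken from the first of 2 deposited junction tables as distinct coordinates of that length with 200 or more spliced reads summed over its 8 libraries. They made up 10.9% of the 130774 junctions with that many reads and lay in 5061 of the 12800 genes that had such a junction. Length and read number chose the members, so neither is a finding about them. Of the 14243, 14215 were also listed in the second table, 11480 of them with 200 or more reads there, and 28 were not listed.

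The RNA was polyadenylated RNA of NMRI wild-type mice, sequenced in stranded libraries. The tissue was neocortex of mice aged 10 days (P10) or 49 days (P49) after birth. The cultures held primary neocortical cells from E16.5 embryos, kept for 14 days and left untreated (control) or given DRB at 50 µM for 2 hours. Some unused columns of the first DRB libraries have TTX, a blocker of action potentials, in their names. The labels do not say whether these cultures received it, so differences from control may not be due to DRB alone. In a second experiment such cultures received DRB at 50 µM for 2 hours, alone or together with bicuculline at 20 µM for 1 hour. DRB (5,6-dichloro-1-β-D-ribofuranosylbenzimidazole) inhibits the kinase that releases RNA polymerase II into elongation, and is used to follow how long transcripts last. Bicuculline blocks GABA-A receptors and raises network activity. Each of the 6 groups had 2 libraries, called library 1 and 2 in the order of the columns. Neither the tables nor the labels say whether these were separate animals or cultures, and the names of both P10 columns share 1 tissue code. The p-values therefore rest only on how far these samples spread, and that spread may be technical. The study asked which introns are kept in mature RNA in these tissues and cultures, how stable such RNA is and how activity alters it. The reads examined here are those that cross a removed intron, so they show splicing that took place, and retention itself was not analysed.

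An intron is recognised by the U1 particle at its first bases, by a branch point and by the U2AF proteins at a pyrimidine-rich tract before its last bases, AG. When the intron is short, these sites can be paired across the intron itself. In mammals most introns are far longer and sites are usually paired across the exon first. A very short intron leaves little room between the first bases and the branch point, and introns shorter than this class are rarely annotated. Short introns are known to cluster in GC-rich genes, and a few hold the hairpin of a microRNA that fills the intron from end to end, a mirtron, which splicing releases in place of the enzyme Drosha.

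The following introns show what the class looks like. They are the first 10 members named by a rule (most reads, extreme length, called in a comparison, unusual ends) that lie between coding exons and whose letters could be read. No genome sequence was used, so letters came only from GENCODE release 21 transcripts (GRCm38) that keep the intron inside an exon, and each is read 5′ to 3′ on the gene's strand. Capitals mark the first 2 and last 2 bases, which the spliceosome recognises.
Fth1, chr19:9984686-9984780, plus strand, 95 nt, among the most read: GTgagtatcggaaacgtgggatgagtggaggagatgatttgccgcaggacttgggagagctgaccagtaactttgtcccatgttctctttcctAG
Calm2, chr17:87435711-87435790, minus strand, 80 nt, among the most read: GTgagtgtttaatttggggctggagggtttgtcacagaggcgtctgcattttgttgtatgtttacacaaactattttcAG
Adck5, chr15:76594611-76594673, plus strand, 63 nt, among the shortest: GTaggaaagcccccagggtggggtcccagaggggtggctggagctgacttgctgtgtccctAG
Ip6k2, chr9:108796397-108796540, plus strand, 144 nt, lower usage at P49 and higher with DRB: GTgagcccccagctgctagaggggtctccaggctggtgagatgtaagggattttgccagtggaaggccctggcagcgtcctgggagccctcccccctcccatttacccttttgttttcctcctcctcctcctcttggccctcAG
Drap1, chr19:5423675-5423771, minus strand, 97 nt, lower usage at P49: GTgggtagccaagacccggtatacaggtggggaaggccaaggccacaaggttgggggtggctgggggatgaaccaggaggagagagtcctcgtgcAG
Scrib, chr15:76047997-76048114, minus strand, 118 nt, higher usage with DRB: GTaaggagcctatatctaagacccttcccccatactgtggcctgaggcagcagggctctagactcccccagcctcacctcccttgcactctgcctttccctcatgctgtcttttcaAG
Kif22, chr7:127027841-127027930, minus strand, 90 nt, higher usage with DRB: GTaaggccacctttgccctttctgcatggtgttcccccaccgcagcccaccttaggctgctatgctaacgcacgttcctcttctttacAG
Tgfb1i1, chr7:128248293-128248419, plus strand, 127 nt, lower usage with DRB: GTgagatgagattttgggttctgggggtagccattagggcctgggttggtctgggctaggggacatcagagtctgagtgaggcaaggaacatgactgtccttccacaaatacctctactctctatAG
Gadd45g, chr13:51847454-51847555, plus strand, 102 nt, higher with bicuculline: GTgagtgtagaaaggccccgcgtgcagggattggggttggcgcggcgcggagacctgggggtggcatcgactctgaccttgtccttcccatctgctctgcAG
Cep170b, chr12:112743547-112743669, plus strand, 123 nt, begins with GC: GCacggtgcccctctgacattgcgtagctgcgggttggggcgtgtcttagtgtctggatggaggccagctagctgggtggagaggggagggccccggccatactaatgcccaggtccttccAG

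Among the members, 83 had a microRNA gene inside them (81 distinct microRNA genes), and in 11 the RefSeq hairpin had the same first and last base as the intron. The 5 of these with most reads are printed as RNA from the RefSeq table (GRCm38.p6), 5′ to 3′, with the intron's first 2 and last 2 bases in capitals. All lie between coding exons.
Mir6944, intron 9 of Dbn1, chr13:55477681-55477776, minus strand: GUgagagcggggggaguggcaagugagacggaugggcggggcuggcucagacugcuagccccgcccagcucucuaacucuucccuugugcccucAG
Mir1981, intron 5 of Marc2, chr1:184822407-184822488, minus strand: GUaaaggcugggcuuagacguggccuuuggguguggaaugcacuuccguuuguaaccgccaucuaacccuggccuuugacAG
Mir877, intron 12 of Abcf1, chr17:35960730-35960814, minus strand: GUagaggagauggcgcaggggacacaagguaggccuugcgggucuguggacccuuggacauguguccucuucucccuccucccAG
Mir7060, intron 9 of Fbrs, chr7:127489251-127489387, plus strand: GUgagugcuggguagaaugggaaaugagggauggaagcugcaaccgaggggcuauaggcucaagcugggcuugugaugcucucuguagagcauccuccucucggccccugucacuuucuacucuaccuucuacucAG
Mir6958, intron 17 of Dennd6b, chr15:89185465-89185537, minus strand: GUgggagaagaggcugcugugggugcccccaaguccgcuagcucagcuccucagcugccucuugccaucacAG

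Lengths piled up well above the lower limit. The median was 97 nt with quartiles at 85 and 118 nt, 49.4% of the members measured 75 to 99 nt, and 86 nt was the commonest length with 356 members. Only 116 members (0.814%) were under 70 nt, and of those under 65 nt 6 matched an annotated intron. The shortest annotated members were those of Hnrnph1, an RNA-binding splicing regulator (intron 7, 56 nt, chr11:50382872-50382927), of Gcdh (57 nt, in the UTR, chr8:84893685-84893741) and of Stx4a (57 nt, chr7:127842366-127842422), then Adam11 and Adck5 at 63 nt. The longest annotated member with most reads was intron 23 of Cltc, the clathrin heavy chain (150 nt, chr11:86704996-86705145, 17852 reads). The limits cut through a continuous range at the long end, where 910 members in the last 10 nt of the class stood beside 882 junctions in the next 10 nt. At the short end, 31 junctions of 21 to 49 nt had 200 or more reads, of which 1 was annotated. The nearest outside were junctions of 48 nt in Sfr1 (1408 and 1144 reads), and the nearest inside was a junction of 50 nt in Epas1 (924 reads), none of them annotated. By reads, the member of Mutyh stood at 200 and the junctions of Dnah5, Tsc2 and Als2cl at 199, just outside.

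**Figure D1:**
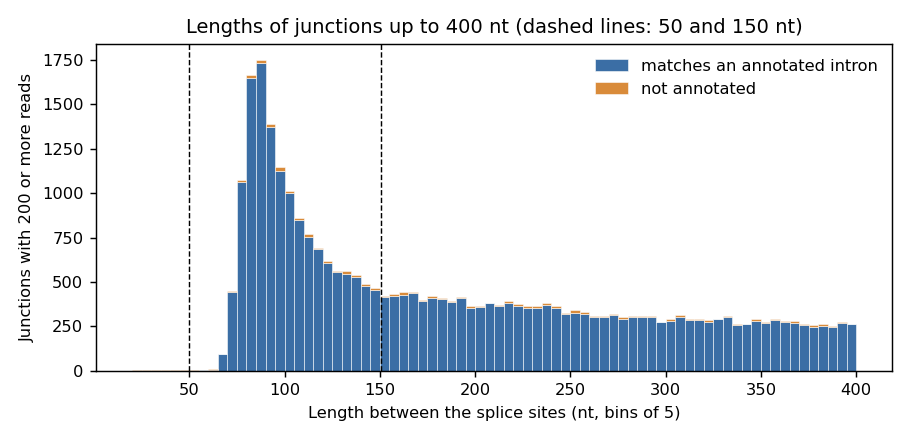
Number of junctions with 200 or more spliced reads over the 8 libraries of the first table (y axis) by length between the splice sites in bins of 5 nt (x axis), annotated in blue and not annotated in orange, with dashed lines at 50 and 150 nt. The counts rise steeply from 65 nt, peak near 86 nt and fall to a slowly declining level at longer lengths.

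Nearly all members were known introns of coding genes. GENCODE release 21 held 14015 of them (98.4%), of which 13622 lay between coding exons, 256 in UTRs and 137 in noncoding transcripts. The remaining 228 were not annotated. Members lay late in their genes. Only 2.64% of the coding members were the first intron of the transcript, against 6.13% of the 107260 longer coding introns with as many reads, and their median relative place (0 at the start, 1 at the end) was 0.58 against 0.50. The exons beside them were slightly shorter, with medians of 116 nt before and 120 nt after, against 126 and 129 nt. By reading frame, 48.1% interrupted the coding sequence between codons, 29.1% after the first base of a codon and 22.8% after the next. Their own length was a multiple of 3 in 31.9%, close to the 33.4% of other annotated junctions.

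Some genes were built largely of them. While 2331 genes had 1 member, 846 had 5 or more and together held 6956 members. Cpsf1, which encodes the largest subunit of the complex that recognises polyadenylation signals, had 34 short introns among 36 junctions (94.4%), with a median length of 78 nt. Lama5, a laminin chain of basement membranes, had the most members, 43 of its 78 junctions. Stab1, a scavenger receptor, had 35 of 68, Abca2, a lipid transporter of myelinating cells and neurons, 33 of 48, and Hspg2, the basement membrane proteoglycan perlecan, 33 of 95. Reads across the members of 1 gene varied: from 560 to 10391 in Abca2, and from 1488 to 4302 in Cpsf1.

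Letters could be read for 2610 members (18.3%), those that some annotated transcript keeps, so they are a selected subset. In it 2565 (98.3%) began with GT and ended with AG, and 26 (0.996%) began with GC and ended with AG. Intron 13 of Cep170b, printed above, had the most reads of the latter (10979), followed by introns of Ncaph2, a condensin subunit (9293 reads), of Ipo5, a nuclear import receptor (6828), and of Psme1, a proteasome activator subunit (6293). Of 2591 introns with these ends, 34.3% began GTGAG and 19.2% GTAAG, while 71.6% ended CAG and 23.9% TAG. GC content had a median of 56.8% (range 17.4% to 88.5%) and was highest in the shortest, with medians of 59.7% at 50 to 74 nt and 57.3% at 75 to 99 nt. The 20 bases before the last 3 were C or T at a median of 75%, and of 70% in introns of 50 to 74 nt. Read through in frame, as a retained intron would be, 1663 of 2348 (70.8%) held a stop codon, as in the printed introns of Fth1, Adck5 and Scrib. Only 195 (8.3%) had neither a stop nor a length that shifts the frame, and the printed introns of Kif22 and Ip6k2 are of that kind.

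A further 13 members began with CT and ended with AC, the reverse complement of GT and AG, and 6 had other ends. The CT-AC junctions with most reads lay in Nav1, a microtubule-guiding protein of growing axons (62 nt, chr1:135435360-135435421, 14276 reads), and in Lonrf2 (60 nt, chr1:38794059-38794118, 8042 reads), and neither was annotated. Nav1 gave 55.6 and 55.0 CPM at P10 against 8.39 and 8.35 at P49. Most of this fall was shared by its gene. The log2 change was -2.72 for the junction and -0.51 relative to the gene (edgeR diffSpliceDGE, adjusted p = 7.98e-05). CPM is the junction's spliced reads relative to the library's total, in the usual CPM unit and scaled by the trimmed mean of M values (TMM). What gives reads with such ends was not tested.

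Most short introns had little competition from other listed junctions at their splice sites. For each junction, the reads that used both of its splice sites together were divided by all listed spliced reads that used either site. A share near 100% does not show that no competing splice exists. Intron 15 of Clasp2 had a share of 100%, yet at P49 it was at 1.28 and 1.12 CPM beside 12.1 and 13.6 for the intron before. Whether all junctions that skip an exon were listed was not tested. The median of this share was 99.96% in members and 99.89% in the 59960 other junctions of the same genes with 200 or more reads. It was under 95% in 7.15% of the members against 11.5% of the others, and under 50% in 2.92% against 4.12%. The 228 members without annotation had a median share of 13.9% and a median of 374 reads, against 2116 reads in annotated members. The unannotated member with most reads after those of Nav1 and Lonrf2 was in Mark4, a microtubule kinase (140 nt, 5754 reads, share 92.0%), followed by Dgkz, a lipid kinase (83 nt, 3745 reads, share 23.2%).

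Short introns carried a steady share of all splicing. They took 13.6% of spliced reads in the first table. By library the share was 13.9% and 13.9% at P10, 13.7% and 13.6% at P49, 13.1% and 13.3% in control cultures and 13.6% and 13.5% with DRB. In the second table, whose libraries were processed separately and are not compared with the first, all 4 libraries were at 11.9%. Libraries of a group differed by a median SD of 0.036 percentage points. The 2 P10 libraries were above the P49 libraries, and the DRB libraries above control, without overlap, but 2 libraries against 2 cannot give an exact permutation p below 0.333.

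The most read members belonged to highly expressed neuronal and housekeeping genes. Intron 2 of Tuba1a, an α-tubulin of growing neurons (132 nt, chr15:98951337-98951468, between coding exons), gave 1065 and 1117 CPM at P10, 261 and 284 at P49, 775 and 857 in control cultures and 1340.1 and 1277 with DRB. It was lowest at P49 by far. Intron 3 of Fth1, the ferritin heavy chain that stores iron, gave 422 and 414 CPM at P10, 673 and 683 at P49, 874 and 917 in control cultures and 1158 and 1087 with DRB, and so ran the other way with age. Next came Eef1a1, which brings tRNA to the ribosome, Selenow, a small selenoprotein, and Calm3 and Calm2, which encode the same calmodulin. The Calm3 and Calm2 introns lie at the same place, after an exon of 144 nt and before one of 107 nt, with lengths of 92 and 80 nt. Calm2 gave 551 and 540.5 CPM at P10, 535 and 542 at P49, 207 and 197 in control cultures and 451 and 400.2 with DRB. Copies of Tuba1a, Eef1a1 and the calmodulin genes are similar enough that reads between them could be misplaced, and the sources used here do not give how the counting treated this.

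Relative to their own genes, short introns were crossed slightly more often than other introns. For each library the log2 ratio of a junction's reads to the median of the gene's other junctions was taken (1 read added to both). Over 14140 members its median was 0.17 in each of the P10 and P49 libraries, 0.14 and 0.13 in control and 0.14 in both DRB libraries, against 0.02 in every library for longer junctions of the same genes. In the second table it was 0.09 to 0.11 against 0.02. The longer junctions include rare and unannotated ones, so the ratio was also taken over annotated junctions with 200 or more reads only, a choice made after seeing the data. Short introns then lay at 0.14 to 0.18 and longer ones at 0.06 to 0.07 in the 8 libraries of the first table, and 61.2% to 63.0% of the short were above their gene's median against 54.5% to 54.8% of the longer. The ratio did not step at 150 nt. In P10 it was 0.15 at 50 to 79 nt, 0.18 at 80 to 99 nt, 0.16 in the longest members, 0.13 in the class just above 150 nt and -0.24 in the longest class. The difference from 0 is small for a single intron: 86.5% of members lay within 1 log2 unit of their gene. GC content, exon length and place in the gene differ along with length, and their part in the ratio was not tested.

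**Figure D2:**
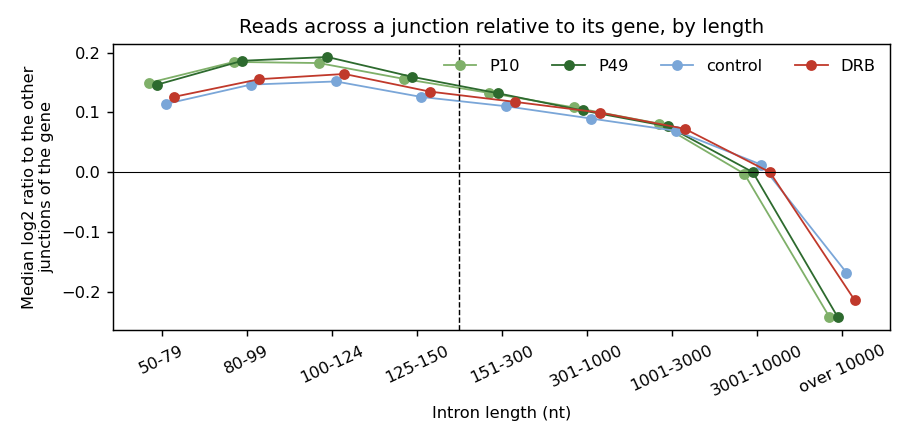
Median log2 ratio of a junction's reads to the median of the gene's other junctions (y axis) by intron length class in nt (x axis), for annotated junctions with 200 or more reads, 1 point per group (mean over its 2 libraries) in P10, P49, control and DRB. All groups are highest in the middle classes left of the dashed line at 150 nt, and lowest in the longest class.

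Changes were read in 2 ways. The level is the CPM of the junction, tested with edgeR's quasi-likelihood test, and it follows the amount of the gene's RNA. Usage is the log2 change of the junction relative to that of its gene as a whole, tested with edgeR's diffSpliceDGE. The gene's change is taken over all its tested junctions, the junction itself included. It can follow the choice of that intron or a shift among the gene's transcripts, and these were not told apart. Both were adjusted by Benjamini-Hochberg over all junctions tested and called at an adjusted p of 0.05. The words rose and fell are kept for calls. Levels are relative to all spliced RNA of the library. In bulk tissue, fewer cells of a type and less RNA per cell cannot be told apart. Spliced reads per library numbered 49557516 to 73895866 in the first table, while the second had 62407103 to 69832287. Neuronal markers were present in every group, and blood genes were at 46.5 to 104 CPM in tissue and at most 0.458 CPM in culture. No junction of Gja1 (astrocytes) or Cldn5 (endothelium) passed the filter on low counts. Spliced reads cannot show a gene that has no intron to count, so this does not mean that either was scarcely expressed. At these depths 14115 members had a read in each of the 8 libraries and 58 had none in either library of some group. The filter on low counts removed 6 members from the first fit, and of those listed in the second table it removed 446.

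From P10 to P49, many short introns were called for level and few for usage. Few calls need not mean few changes. On the simulated counts described below, 38% of 2-fold changes in usage were recovered, against 58% in level. The level of 2753 of 14237 members rose (19.3%, against 18.5% of all 163529 junctions tested) and that of 3384 fell (23.8%, against 18.8%), where 37.4% of all junctions were called in either direction. Usage rose in 61 of 14214 members (0.429%, against 0.89% of all 162173 junctions) and fell in 61 (0.429%, against 0.728%). Among annotated junctions with 200 or more reads, the share called for usage in either direction was 0.685% at 50 to 79 nt, 0.681% at 80 to 99 nt, 1.11% in the class just above 150 nt and 2.31% in the longest class. Of the called members, 30 of 122 (24.6%) lay under another junction that spans them and has at least 5% of the reads over that stretch, against 4.71% of members tested, and 18 (14.8%) were not annotated, against 1.55%. Next to an exon of 27 nt or less lay 4 of the 122 and 146 of the 14214 tested.

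**Figure D3:**
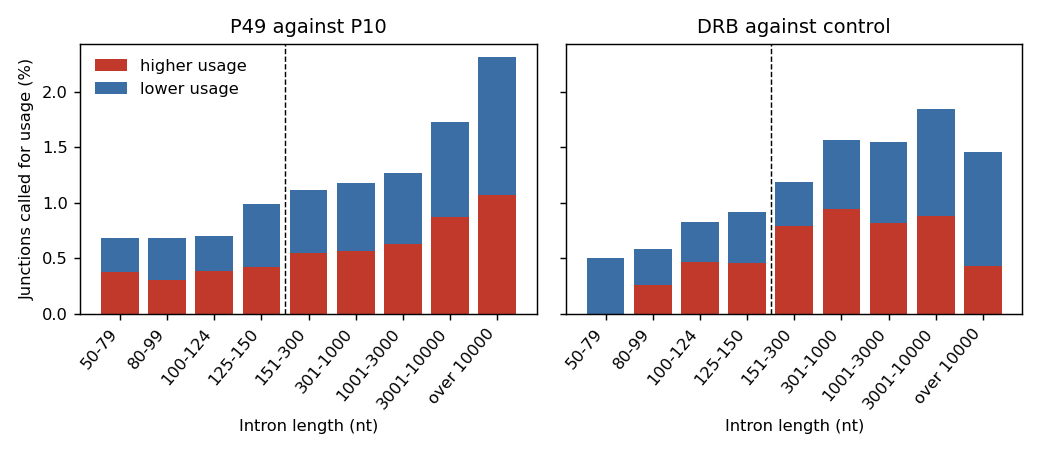
Percent of annotated junctions with 200 or more reads called for usage (y axis; red higher, blue lower) by intron length class in nt (x axis), for P49 against P10 (left) and DRB against control (right). Classes left of the dashed line at 150 nt are all under 1%, and each class to its right is above 1%.

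Among myelin genes, all 7 members, in 3 genes, rose with age (median log2 change 0.87, against -0.03 over all members; 6 by DESeq2). The last intron of Mobp, a protein of the myelin sheath (119 nt, in the UTR, chr9:120179406-120179524), gave 10.3 and 10.3 CPM at P10 and 58.1 and 52.9 at P49, a log2 change of 2.43 ± 0.10 (SE, edgeR adjusted p = 1.58e-14). Intron 3 of Mag, a myelin adhesion protein (121 nt), gave 12.9 and 11.1 CPM at P10 and 22.2 and 21.9 at P49. The groups did not overlap for either. Markers of whole cell types moved as well. Those of oligodendrocytes are themselves in the list of myelin genes, and Mobp is named above, so their sum is not a separate observation. The summed level of the oligodendrocyte markers Mbp, Mog and Mobp went from 396 to 452 CPM at P10 to 1115 to 1139 CPM at P49, and that of astrocyte markers from 871 to 905 CPM to 1344 to 1371 CPM. The summed level of 5 neuronal markers moved from 4278 to 4297 CPM at P10 to 6592 to 6610.4 CPM at P49, and the part of these in the changes of single introns was not tested.

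Members in translation and matrix genes fell more often than they rose. In translation factors and tRNA ligases, 87 of 172 fell and 3 rose (median -0.24), as in intron 7 of Eef1a1, which went from 685 and 659.7 CPM to 416 and 427 (log2 change -0.67 ± 0.06, edgeR adjusted p = 1.05e-08). In cytosolic ribosomal proteins 25 of 71 fell and 3 rose, in proteasome, chaperonin and heat shock genes 67 of 152 fell and 16 rose, and in collagens, laminins and integrins 134 of 354 fell and 32 rose. The summed level of endothelial and mural markers went from 197 to 199 CPM at P10 to 141 to 153 CPM at P49 beside the matrix genes, and its part was not tested. These lists were made from the starts of symbols, so the proteasome list also holds Hspg2, of whose 33 members 30 fell, and the matrix list holds the lysosomal genes Lamp1 and Lamp5. Of 113 members in ion channels and receptors 46 rose and 22 fell, of 65 in synaptic proteins 17 rose and 15 fell, and of 234 in splicing factors 33 rose and 61 fell. Among immediate early genes 7 of 11 members rose and none fell in either edgeR or DESeq2.

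Of the 4 named falls in level, 3 were in genes known from dividing cells. Intron 6 of Cdk1, the kinase that drives mitosis (92 nt, chr10:69340623-69340714), went from 1.35 and 1.52 CPM to 0.12 and 0.09 (log2 change -3.76 ± 0.29, edgeR adjusted p = 5.18e-10). Intron 14 of Top2a, which untangles replicated DNA (129 nt), went from 0.85 and 0.85 CPM to 0.12 and 0.02, and intron 24 of Stag3, a cohesin subunit known from meiosis (108 nt), from 1.32 and 1.66 to 0.21 and 0.02. Each group of libraries was clear of the other. Among the named rises in level were Hsf4, a heat shock transcription factor (96 nt, chr8:105274752-105274847), from 0.13 and 0.10 CPM to 3.91 and 3.79, and Igfbp6, which binds insulin-like growth factor II (123 nt, chr15:102147979-102148101), from 0.57 and 0.64 CPM to 9.90 and 11.7. Usage was not called by edgeR in any of these 5 introns.

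A pair of introns showed how 1 library or a few reads can carry a call. The junction of 80 nt in Kpna2, a nuclear import receptor (chr11:106991333-106991412), had 510 reads in P10 library 1, none in P10 library 2 and none in either P49 library. Its level was called lower (edgeR adjusted p = 0.00038), and without P10 library 1 nothing was left to test (adjusted p = 1). The last intron of Rpl21, a ribosomal protein (149 nt, chr5:146835715-146835863), had 1163 and 1192 reads in the control cultures and 1991 and 1898 with DRB, but no read in either P10 library and 3 and 2 in the P49 libraries. Its level was called higher at P49 (edgeR adjusted p = 0.0205), which rests on those 5 reads and was lost without P49 library 1 or either P10 library. Other copies of Rpl21 exist in the genome, and which copy gave these reads was not tested.

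Among the called members with a mean log2 CPM of 0 or more, to which the following accounts of usage and level keep unless said otherwise, Tubg2 had the largest gain in usage with age. It encodes a γ-tubulin, from which microtubules grow. Its intron 9 (80 nt, chr11:101160947-101161026, plus strand, between coding exons) had 8 and 9 reads at P10, or 0.12 and 0.13 CPM, and 6.50 and 13.9 CPM at P49. Usage rose by 5.86 ± 0.35 on the log2 scale (SE, edgeR adjusted p = 4.29e-18). The next intron (216 nt) was crossed at 9.77 and 10.2 CPM at P10 and 12.2 and 12.4 at P49, so the gene itself was read at both ages. The intron before (397 nt) was low at P10 too, at 3.04 and 3.02 CPM against 8.04 and 13.3 at P49 (usage 1.33, edgeR adjusted p = 5.78e-06). In control cultures intron 9 was at 2.52 and 3.15 CPM beside 4.01 and 3.97 for the next intron. In the 4 libraries of the second table it was at 0.52 to 1.14 CPM beside 3.08 to 3.79. The P49 libraries stood apart at this intron and the one before, while they differed little at the next.

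Rfng, a sugar transferase that modifies Notch receptors, showed a similar rise at a junction without annotation. This junction of 67 nt (chr11:120781275-120781341, minus strand, ends GT-AG) went from 0.61 and 0.56 CPM at P10 to 7.68 and 5.53 at P49, while the annotated intron 7 of the same gene (75 nt) went from 15.4 and 14.6 to 12.0 and 9.83. Usage of the junction of 67 nt rose by 3.88 ± 0.19 (edgeR adjusted p = 2.47e-30). Cultures lay between, at 1.56 and 1.88 CPM in control and 2.71 and 2.68 with DRB, and the second table had 0.18 to 0.29. Other unannotated junctions of Rfng lay beside it and did not move alike. That of 66 nt (chr11:120781342-120781407) went from 0.93 and 0.56 to 0.30 and 0.32 CPM with age, with no call for usage (-0.85, edgeR adjusted p = 0.416). That of 201 nt (chr11:120781408-120781608) went from 0 and 0.01 to 1.16 and 0.78 CPM (usage 7.11, edgeR adjusted p = 6.99e-15). What gives this run of junctions was not tested.

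Arpp21, a phosphoprotein of striatal and cortical neurons, rose from a higher level. The first intron of its transcript, in the UTR (94 nt, chr9:112187767-112187860, minus strand), was at 28.2 and 19.0 CPM at P10 and 55.8 and 55.2 at P49, without overlap. Usage rose by 1.57 ± 0.10 (edgeR adjusted p = 1.2e-27). Smaller rises in usage came from Rrbp1, a ribosome-binding protein of the endoplasmic reticulum (132 nt, 1.69 and 1.57 to 2.84 and 4.78 CPM, usage 1.63), and from junctions of Wdr5, a core subunit of histone methyltransferases (113 nt, not annotated, 1.33 and 1.20 to 2.30 and 2.26 CPM, usage 1.67), and Maz, a zinc finger factor (135 nt, not annotated, 1.44 and 1.21 to 2.87 and 2.43 CPM, usage 1.65). The junction of Maz lay almost wholly under a longer one, with a share of 3.3%, and lost its call without P10 library 2 (edgeR adjusted p = 0.0551). In Dnajc7, a co-chaperone (119 nt, share 2.2%), usage rose by 1.48 from 0.42 and 0.32 to 1.03 and 0.92 CPM. Intron 14 of Atp13a2, a lysosomal transporter (95 nt, chr4:141000590-141000684), was called higher at 2.06, but its values were 1.70 and 1.34 CPM at P10 and 7.51 and 0.88 at P49. The P49 libraries lie on either side of P10, and without P49 library 1 the usage change was -0.12. The call was also lost without either P10 library.

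Clasp2 showed the largest loss in usage with age. Clasp2 holds growing microtubule ends. Its intron 15 (148 nt, chr9:113862288-113862435, plus strand) ends at an exon of 27 nt, and it fell from 10.6 and 10.8 CPM at P10 to 1.28 and 1.12 at P49. Usage fell by 2.54 on the log2 scale (SE 0.12, edgeR adjusted p = 2.05e-49). The junction on the other side of that exon went from 9.93 and 10.2 to 0.62 and 0.595 CPM, and the junction after the following exon, also 27 nt, from 12.4 and 11.8 to 0.77 and 0.85. The introns just outside this stretch changed far less, from 20.6 and 19.6 to 12.1 and 13.6 CPM before it and from 23.7 and 22.0 to 15.6 and 16.8 after it. Exons this short are called microexons and are known from neuronal transcripts. The short intron thus moved as part of a block of neighbouring exons. In control cultures it was at 4.62 and 5.14 CPM and with DRB at 8.79 and 8.68, with no call for usage there (0.27 ± 0.10, edgeR adjusted p = 0.454).

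The other falls in usage were in less abundant junctions. Intron 5 of Tmpo, a protein of the inner nuclear membrane (97 nt, chr10:91153181-91153277), went from 1.26 and 1.31 to 0.23 and 0.10 CPM (usage -2.24 ± 0.32, edgeR adjusted p = 1.11e-06). Intron 1 of Ip6k2, an inositol phosphate kinase (144 nt, printed above), went from 1.05 and 1.04 to 0.20 and 0.24 CPM (usage -2.19 ± 0.31, edgeR adjusted p = 7.7e-07). The junction of Ubl5, a ubiquitin-like protein of the spliceosome (150 nt, not annotated, ends GC-AG, share 2.15%), went from 1.23 and 1.34 to 0.38 and 0.26 CPM. That of Sept5, a septin of presynaptic terminals (146 nt, before an exon of 11 nt), went from 1.94 and 1.67 to 0.76 and 0.99. In these 4 the P49 libraries lay below both P10 libraries. Intron 4 of Drap1, a subunit of a transcription repressor, had a share of 5.0% under a longer junction and went from 2.14 and 2.37 to 1.44 and 0.70 CPM (usage -1.50). Intron 47 of Lama5 (usage -1.37, edgeR adjusted p = 0.0418, lost in 6 of 8 alternatives) and intron 13 of Ppp1r9a, a spine protein that binds actin (usage -1.33, edgeR adjusted p = 0.00346, 0.293 without P49 library 2), were less firm.

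**Figure D4:**
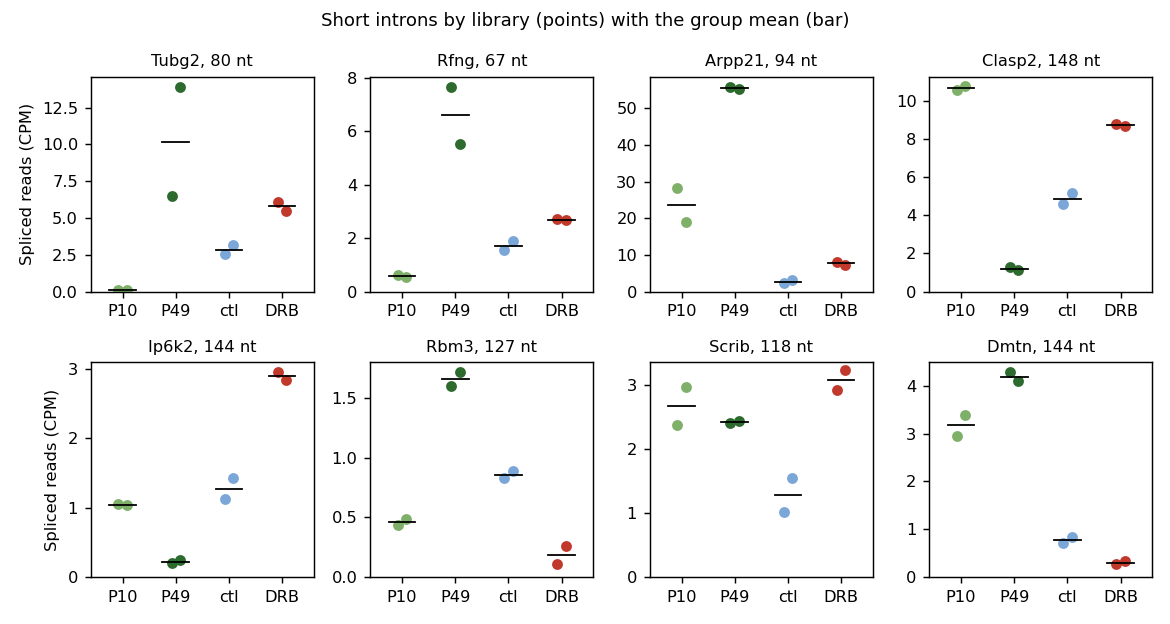
Spliced reads in CPM (y axis, from 0) for 8 short introns named by gene and length, 1 point per library and a bar at the mean of the 2 libraries, in P10, P49, control (ctl) and DRB of the first table. Tubg2, Rfng, Arpp21, Rbm3 and Dmtn are higher at P49 than at P10, and Clasp2 and Ip6k2 are lower. Tubg2, Rfng, Arpp21, Clasp2, Ip6k2 and Scrib are higher with DRB than in control, while Dmtn and Rbm3 are lower.

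With DRB, many short introns were called for level, in both directions, and few for usage. Here too the simulation recovered fewer 2-fold changes in usage (32%) than in level (45%). The level rose in 3994 of 14237 members (28.1%, against 22.2% of all junctions tested) and fell in 3212 (22.6%, against 22.4%), where 44.6% of all junctions were called in either direction. Usage rose in 54 of 14214 (0.38%, against 1.3% of all junctions) and fell in 57 (0.401%, against 0.694%). The share called for usage in either direction was 0.498% at 50 to 79 nt, where all 8 calls were lower, 0.579% at 80 to 99 nt, 1.18% in the class just above 150 nt and 1.46% in the longest class. Of the 111 called, 25 (22.5%) lay under a spanning junction, against 4.71% of members tested, and 13 (11.7%) were not annotated, against 1.55%. Next to an exon of 27 nt or less lay 9 of the 111 and 146 of the 14214 tested.

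Levels relative to all spliced RNA rose in genes of neuronal signalling and of metabolism. In synaptic proteins 60 of 65 members rose and 2 fell (median log2 change 0.84, against 0.03 over all members), in ion channels and receptors 81 of 113 rose and 3 fell, in pump ATPases 46 of 78 rose and 2 fell, and in the respiratory chain and ATP synthase 36 of 49 rose and 2 fell. Intron 3 of Vamp2, the vesicle protein that drives transmitter release (86 nt, chr11:69089890-69089975), went from 97.6 and 103 CPM to 203 and 197 (log2 change 1.00 ± 0.06, edgeR adjusted p = 8.66e-11). Intron 7 of Grin1, the obligatory NMDA receptor subunit (97 nt), went from 26.7 and 28.6 to 60.9 and 58.1 CPM. In both the DRB libraries lay above both controls. Ribosomal protein members rose in 41 of 71 and fell in 1, and members in translation factors in 89 of 172 and 5. The summed level of neuronal markers moved alike, from 1221 to 1324 CPM in control to 2493 to 2631 CPM with DRB, and its part in these values was not tested.

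Levels fell in matrix genes. In collagens, laminins and integrins 198 of 354 members fell and 21 rose (median -0.74), and all 33 members in Hspg2 fell. The summed level of endothelial and mural markers went from 134 to 149 CPM to 39.0 to 42.7 CPM beside them, and its part was not tested. The largest fall of a single member was in Id3, a short-lived inhibitor of differentiation. Its first intron (115 nt, chr4:136144179-136144293) went from 12.3 and 11.6 CPM to 0.78 and 0.51 (log2 change -4.22 ± 0.17, edgeR adjusted p = 5.13e-14). Intron 3 of Ajuba, an adaptor of cell contacts (102 nt, chr14:54571664-54571765), went from 3.22 and 3.15 to 0.25 and 0.31 CPM (-3.50 ± 0.25, edgeR adjusted p = 4.69e-10). Intron 11 of Slc22a8, an organic anion transporter (86 nt), was called lower with DRB, but had only 1 and 3 reads in control and none with DRB, and lost the call in 5 of 7 alternatives. Immediate early genes split by gene, with 6 of 11 members higher and 5 lower. Intron 5 of Nr4a1, an activity-induced nuclear receptor (94 nt, chr15:101272921-101273014), went from 2.70 and 2.56 to 14.5 and 15.6 CPM (2.52 ± 0.10, edgeR adjusted p = 7.6e-14), while intron 2 of Gadd45g, a stress-induced growth arrest gene, went from 6.27 and 6.10 to 1.81 and 1.81. Further called rises were small in reads: intron 10 of Gls2, a glutaminase, from 0.18 and 0.08 to 0.62 and 0.43 CPM, and intron 6 of Car4, a carbonic anhydrase, from 0.02 and 0.05 to 0.19 and 0.15, a call lost without control library 1.

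The members named for a rise in usage with DRB lay in genes of varied function. Intron 35 of Scrib, a polarity scaffold at synapses and junctions (118 nt, printed above), went from 1.01 and 1.54 to 2.92 and 3.24 CPM (usage 1.27 ± 0.18, edgeR adjusted p = 9.52e-09). Intron 12 of Atl2, which fuses endoplasmic reticulum tubules (93 nt, in the UTR, chr17:79850794-79850886), went from 2.72 and 2.66 to 4.16 and 4.22 CPM (0.90 ± 0.14, edgeR adjusted p = 3.14e-06). Intron 6 of Son, a protein of nuclear speckles that supports splicing (97 nt, chr16:91664823-91664919), went from 1.36 and 1.17 to 2.36 and 2.03 CPM (0.97 ± 0.21, edgeR adjusted p = 0.000961), a call lost without DRB library 1 or control library 2. In all 3 the DRB libraries lay above both controls. Intron 8 of Slc22a23, a member of the organic ion transporter family (121 nt, chr13:34193273-34193393), which precedes an exon of 24 nt, went from 1.18 and 1.34 to 1.84 and 1.81 CPM (usage 1.15 ± 0.17, edgeR adjusted p = 2.27e-06). The intron after that exon moved with it (1.32 and 1.27 to 1.44 and 1.59 CPM, usage 0.84), whereas intron 7 went from 11.7 and 10.9 to 7.64 and 7.49. Intron 1 of Ip6k2 went from 1.12 and 1.42 to 2.96 and 2.84 CPM (1.06 ± 0.21, edgeR adjusted p = 0.000728), opposite to its change with age. The junction of Kif1c, a kinesin (122 nt, not annotated), was called at an edgeR adjusted p of 0.0462 with 0.50 and 0.57 CPM in control and 0.62 and 0.59 with DRB, and lost the call in 6 of 7 alternatives. That of Robo3, an axon guidance receptor (114 nt, not annotated), had no read in control and 8 and 10 with DRB, beside 172 to 218 in each tissue library. Its call for usage was lost without any 1 of the 4 culture libraries. Its level was also called higher with DRB (log2 change 6.26 ± 1.13, edgeR adjusted p = 0.000113). That call was kept in every alternative, but rests on those few reads.

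The members named for a fall in usage with DRB also lay in genes of varied function. Intron 12 of Dmtn, the actin-bundling protein dematin (144 nt, chr14:70605549-70605692), precedes an exon of 8 nt and went from 0.72 and 0.84 to 0.27 and 0.33 CPM. Its usage fell by 2.29 (SE 0.30, edgeR adjusted p = 1.97e-08), while intron 11 of the gene went from 14.7 and 17.3 to 29.6 and 27.02. Intron 1 of Tgfb1i1, a focal adhesion protein (127 nt, printed above), went from 3.35 and 2.43 to 0.96 and 0.59 CPM (-1.56 ± 0.22, edgeR adjusted p = 3.96e-07), and intron 11 of Pdlim7, an actin-associated scaffold (91 nt, chr13:55499010-55499100), from 2.65 and 2.60 to 1.08 and 0.87 (-1.39 ± 0.18, edgeR adjusted p = 5.6e-08). Intron 4 of Vps13d, a lipid transfer protein (93 nt, chr4:145178096-145178188), went from 2.28 and 2.16 to 1.17 and 1.21 CPM (-1.09 ± 0.18, edgeR adjusted p = 6.26e-05). Intron 4 of U2af1, the protein that reads the AG at intron ends (79 nt, chr17:31648766-31648844), went from 2.15 and 2.11 to 1.28 and 1.21 CPM (-0.95 ± 0.19, edgeR adjusted p = 0.000741). Intron 7 of Araf, a kinase of the growth factor pathway (100 nt, before an exon of 28 nt), went from 2.23 and 1.96 to 1.38 and 1.63 CPM (usage -1.08), a call lost without control library 1 or DRB library 1. The DRB libraries were the lower in each of these 6. In Sgk1, a kinase induced by stress hormones, the first intron (140 nt) went from 2.39 and 2.14 to 0.14 and 0.21 CPM. Its level was called lower (log2 change -3.65 ± 0.33, edgeR adjusted p = 8.72e-09), a call kept in every alternative. Its usage of -2.06 was called at an edgeR adjusted p of 0.0353, and that call was lost without any 1 of the 4 libraries. The junction of 51 nt in Sos2, an activator of Ras, was not annotated and varied within groups (1.20 and 2.06 CPM in control, 0.35 and 0.21 with DRB, 1.24 and 2.87 at P10), and its call was lost without control library 2 or DRB library 2.

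Some short introns are cut from what another transcript keeps as coding sequence. Such introns numbered 116, of which 79 (68.1%) had a length that is a multiple of 3, so that keeping or removing them leaves the frame. Ends were GT-AG in 110, GC-AG in 1, CT-AC in 4 and another pair in 1. The most read were those of Ube2m, an enzyme of neddylation (87 nt, 32678 reads), Apbb1, an adaptor of the amyloid precursor protein (88 nt, 26630 reads), and Pabpn1, the nuclear poly(A)-binding protein (81 nt, 24831 reads), whose usage was not called in any comparison. With DRB usage rose in 7 of the 116 and fell in none, where the whole table gave 1.3% and 0.694%; with age it rose in 1 and fell in 1. The members named here were picked after their values were seen. Intron 13 of Kif22, a kinesin of mitotic chromosomes (90 nt, printed above), went from 1.43 and 1.32 to 0.89 and 0.87 CPM with DRB, less than its gene (usage 0.92 ± 0.24, edgeR adjusted p = 0.0163, lost without any 1 of the 4 libraries). Intron 4 of Akap8l, a nuclear anchoring protein (102 nt), went from 2.04 and 1.98 to 4.11 and 3.78 CPM (usage 0.57 ± 0.15, edgeR adjusted p = 0.021). The others were below 1.2 CPM in every culture library of the first table: Epb41l2, Srrm2, Mtf2, Pigg and Hook2, of which Srrm2 had CT-AC ends and Pigg and Hook2 were GT-AG without annotation.

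Of the 122 members called for usage with age and the 111 called with DRB, 17 were called in both, which is 13.9% and 15.3% of the lists. Over all junctions 351 were called in both, which is 13.4% of those called with age and 10.9% of those called with DRB. The direction was the same in 10 and opposite in 7. The comparisons share no library, though they share an estimate of spread. Rbm3, an RNA-binding protein induced by cold, was picked from these after its values were seen. Its intron 3 (127 nt, chrX:8144446-8144572, minus strand, between coding exons) went from 0.43 and 0.49 to 1.60 and 1.72 CPM with age (usage 2.46 ± 0.32, edgeR adjusted p = 6.19e-08) and from 0.83 and 0.89 to 0.11 and 0.26 with DRB (-2.24 ± 0.42, edgeR adjusted p = 0.000232). Celsr3, a cadherin that guides axons, had a pair of unannotated junctions side by side (105 and 148 nt) that rose in both. The former went from 0.72 and 0.57 to 1.83 and 1.56 CPM with age and from 0.09 and 0.13 to 0.76 and 0.52 with DRB. Arpp21 rose in both, with 2.32 and 3.13 CPM in control and 8.17 and 7.37 with DRB (usage 0.85 ± 0.14, edgeR adjusted p = 1.58e-06). Introns 8 and 11 of Pdlim7 fell in both.

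Introns that hold a microRNA were too few to set apart from the background of calls. Of the 83 (82 tested with bicuculline), usage was called in 1 with age, in 0 with DRB and in 0 with bicuculline by edgeR, against 1.62%, 1.99% and 0.00275% of all junctions. The 1, named after its values were seen, was the first intron of Sirt7, a nuclear deacetylase (66 nt), at 2.08 and 0.99 CPM at P10 and 0.98 and 0.66 at P49 (usage -1.02 ± 0.28, edgeR adjusted p = 0.0327). Of the 83, levels rose in 15 and fell in 27 with age, where 18.5% and 18.8% of all junctions did, and rose in 25 and fell in 26 with DRB, where 22.2% and 22.4% did. The Mir6944 intron of Dbn1, the actin-binding drebrin of spines, gave 32.3 and 27.2 CPM at P10, 20.6 and 22.6 at P49, 20.5 and 22.2 in control and 31.7 and 30.9 with DRB. The Mir1981 intron of Marc2, a mitochondrial reductase, ran the other way with age, at 12.0 and 13.2 CPM at P10 and 20.7 and 22.9 at P49. The intron filled by Mir1224, in Vwa5b2, gave 1.12 and 1.27 CPM in control and 2.78 and 2.89 with DRB, and the one filled by Mir7018, in Hspg2, 3.26 and 3.35 and 1.06 and 0.93. These counts tell how often the host intron was removed and say nothing of the amount of mature microRNA.

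Bicuculline added to DRB raised a few short introns of activity-induced genes. The level rose in 19 of 13769 members (0.138%, against 0.0683% of 146481 junctions) and fell in 0, where edgeR had 295 lower at an unadjusted p under 0.05 and DESeq2 called 0 (of all junctions 0.0109% were called lower and 0.0792% in either direction). Of the 11 members in 7 immediate early genes 8 rose by edgeR (7 by DESeq2). The other lists had no call. Since earlier results of these data were known when the list was made, the count is a description. DRB was present in all 4 cultures.

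Npas4, a transcription factor induced by calcium entry in neurons, had the largest. Its intron 3 (110 nt, chr19:4988349-4988458, minus strand) was at 1.55 and 1.49 CPM with DRB and 29.98 and 29.8 with bicuculline added (log2 change 4.29 ± 0.09, edgeR adjusted p = 2.55e-32). Intron 6 (130 nt) was at 2.01 and 2.39 and then 43.0 and 41.9 CPM (4.27 ± 0.09, edgeR adjusted p = 1.82e-33). Intron 3 of Fos, a subunit of the AP-1 factor (117 nt, chr12:85475700-85475816, plus strand), went from 19.9 and 21.6 to 93.6 and 86.0 CPM (2.12 ± 0.06, edgeR adjusted p = 4.39e-28). Introns 3 and 2 of Gadd45g (99 and 102 nt) went from 0.72 and 0.82 to 3.82 and 3.999 CPM and from 1.78 and 1.85 to 9.45 and 8.17 (log2 changes 2.34 ± 0.17 and 2.28 ± 0.12). In all of these the groups were far apart.

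Smaller rises had log2 changes from 0.52 to 1.58. Gadd45b (88 nt) went from 0.48 and 0.66 to 1.69 and 1.70 CPM, and Nr4a1 (94 nt) from 13.9 and 16.9 to 40.4 and 37.7. The 3 introns of Plk2, a kinase that weakens synapses after activity, rose alike, by 1.23 ± 0.09, 1.16 ± 0.10 and 1.22 ± 0.09. Those of Pim3, a survival kinase, and Rgs2, which damps G protein signals, rose by 1.01 ± 0.14 and 0.91 ± 0.08, the latter from 9.37 and 10.7 to 19.0 and 18.9 CPM. The 3 introns of Sik1, a salt-inducible kinase, rose by 0.86 to 1.41, with 1 of the 3 kept by DESeq2. Nr4a2, Alkal2 (a ligand of the kinase Alk) and Ccn1 (a matrix protein) rose by 0.70, 0.86 and 0.52 in edgeR and were not called by DESeq2. Alkal2, Nr4a2 and the other 2 Sik1 introns also lost the call when 1 library was left out. The pair of Klf4 introns (116 nt each), in the same list, were at 0.03 to 0.18 CPM with DRB and 0.35 to 0.48 with bicuculline and were not called (edgeR adjusted p = 0.205 and 0.147).

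**Figure D5:**
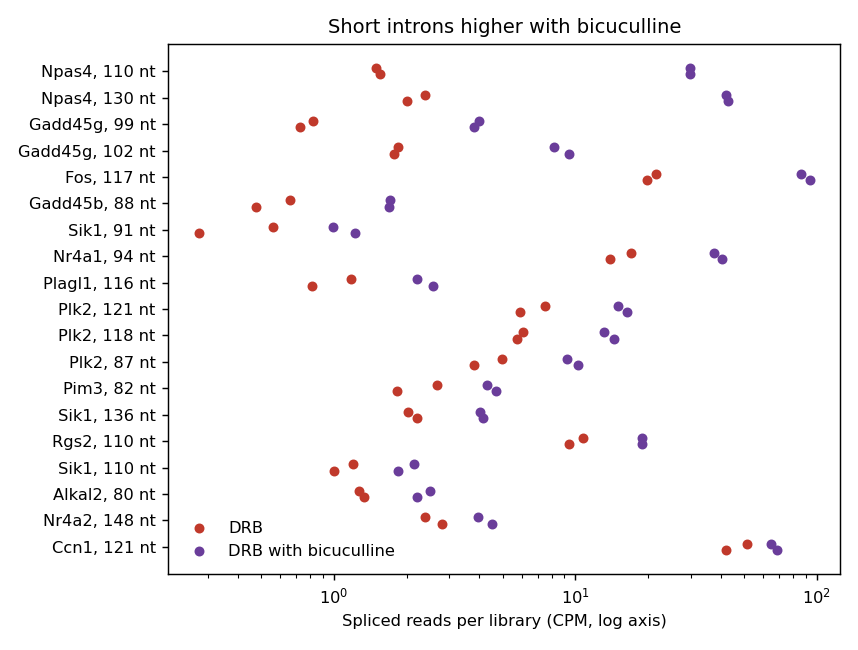
Spliced reads in CPM per library (x axis, log scale) for the 19 short introns whose level was called higher with bicuculline, named by gene and length (y axis, ordered by log2 change), with 2 libraries of DRB alone in red and 2 of DRB with bicuculline in purple. The purple points lie to the right of the red points for every intron, from a wide gap in Npas4 to a narrow one in Ccn1.

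Usage was called in only 2 members here. In Fos, an alternative first intron of a noncoding transcript (139 nt, chr12:85474796-85474934) ends at the same base as the usual first intron of 754 nt but starts later. It was at 1.67 and 1.73 CPM with DRB and 2.22 and 1.94 with bicuculline (level 0.29 ± 0.16, edgeR adjusted p = 1), while the usual one went from 8.01 and 10.0 to 44.5 and 42.2. Its usage fell by 1.84 (SE 0.20, edgeR adjusted p = 3.67e-06), a call that was lost when the letters in the column names were fitted as a replicate block (adjusted p = 1). The other was a junction of 116 nt in Plagl1, a growth-suppressing zinc finger factor (chr10:13130746-13130861, ends CT-AC, not annotated), at 0.81 and 1.17 CPM with DRB and 2.58 and 2.20 with bicuculline (usage 1.21 ± 0.20, edgeR adjusted p = 0.0028). Its level rose as well, by 1.27 on the log2 scale. The call for usage was lost without bicuculline library 1 and without DRB library 1. Each is 0.00728% of the 13730 members tested, against 0.00207% of all junctions called higher and 0.000688% called lower.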

How the data were processed

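The deposited tables give, per the file headers, spliced and intronic read counts for each intron and library. The submitters' processing notes name STAR 2.4.0f1 and the mouse build mm10, and the sources used here do not give the counting tool. Only the columns of spliced read counts were used, and 72 other per-library columns were not. Columns for P10, for DRB in the first table and for bicuculline name their group, and those for control, P49 and DRB alone in the second table were assigned by elimination among the names. Of rows with the same coordinates the one with most reads was kept, which also settled 4523 coordinates listed on both strands in the first table, with 4730 such in the second. Library totals ran from 49557516 to 73895866 spliced reads.

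Counts were tested with edgeR 4.0.16 in R 4.3.3 (TMM, filterByExpr, quasi-likelihood test for levels, diffSpliceDGE for usage), in 1 fit per table over all its junctions, and adjusted by Benjamini-Hochberg. Alternatives were DESeq2 1.42.0 for levels, limma 3.58.1 (voom, diffSplice) for usage, a filter of 10 reads in sum only, the compared groups only, annotated junctions only, a limit of 120 nt, a minimum of 1000 reads, a replicate block and leaving out each library. Python 3.11.15 with pandas 2.3.3 and numpy 2.4.6 made the tables. On simulated counts (dispersion 0.02, 200 changed junctions), the usage test recovered 38%, 32% and 34% of 2-fold changes for age, DRB and bicuculline (157823, 157869 and 146403 junctions), and 2%, 1% and 1% of 1.5-fold changes.

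Members named by rule were the 6 most read, the 5 shortest and 2 longest annotated, for each comparison up to 8 called members a direction by size of the usage change and up to 4 by level (mean log2 CPM over the table of 0 or more), those with unusual ends, those beside the limits, up to 2 by reads in each gene list and 5 genes with most members. Named beyond this rule, after values were seen, were all members called with bicuculline, those in immediate early genes, inside coding exons or called in both other comparisons, the most read unannotated ones, neighbouring junctions and introns with a microRNA. The members, gene lists and tests were chosen with earlier results of these data known. Some members and marker values that these rules would name are not reported here.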

Additional observations from a re-analysis of the deposited data

How the results depend on the processing

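Counts of calls for usage depended on the number of libraries. With age, leaving out 1 library gave 38 to 64 members higher and 39 to 65 lower, and a minimum of 1000 reads gave 30 and 33. With DRB, leaving out 1 library gave 17 to 25 higher and 22 to 31 lower, limma's diffSplice gave 91 higher, a limit of 120 nt gave 33 higher, and a minimum of 1000 reads gave 29 higher and 33 lower, with 1884 lower in level. With bicuculline, members higher in usage numbered 0 with annotated junctions only, 0 with a minimum of 1000 reads and 0 to 1 without 1 library, and those lower in usage numbered 0 with a limit of 120 nt and 0 with a minimum of 1000 reads. Members lower in level with bicuculline numbered 1 to 3 without 1 library.

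The labels number the second table's replicates 1 and 2 while its columns carry the letters a and b. Differences between libraries of the same letter correlated at 0.0749, so the letters were not taken as pairs. With the letter as a replicate block, usage with bicuculline was higher in 1 member and lower in 0, and level was higher in 24 and lower in 5. In the first table the column names carry no shared replicate number, so no block could be fitted there.

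The share of reads across short introns ran from 9.25% to 10.9% by library with a limit of 120 nt, from 11.6% to 13.5% with a minimum of 1000 reads, and from 11.9% to 14.0% with annotated junctions only. The ratio to the gene ran from 0.17 to 0.24 by group with a minimum of 1000 reads, and its highest group was at 0.18 with a limit of 120 nt and at 0.21 against the mean of the other junctions. Limits on length or reads leave fewer members, and the cause of the other shifts was not tested.

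Of 69 calls of named members, 47 were kept in every alternative run. Over 536 values under alternatives 62 lost the call, and 1 changed sign, the usage of Atp13a2, which ranged from -0.12 without P49 library 1 to 2.78 without P49 library 2. Where a group was left with 1 library, it was assumed to vary like the other groups. DESeq2 turned the sign of the median level change with age in the pump ATPase and polymerase lists, both near 0. Most 1.5-fold changes were not recovered in the simulation, whose dispersion of 0.02 was set and not estimated from these data. In the data, smaller changes were called in well-read junctions. The level of intron 3 of Fth1 with DRB is 1 such case (log2 change 0.33 ± 0.06, edgeR adjusted p = 8.2e-05). The simulation therefore does not give the smallest change detectable here.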
